A study of Homo sapiens with 15 samples.

Results

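ERK feedback inhibitors are proteins that restrain the RAS-RAF-MEK-ERK cascade and that the cascade itself induces. The 10 genes described here are 4 dual specificity phosphatases (DUSP4, DUSP5, DUSP6 and DUSP7), 3 Sprouty genes (SPRY1, SPRY2 and SPRY4) and 3 SPRED genes (SPRED1, SPRED2 and SPRED3). They were chosen by symbol as known members of these families, after earlier results of these data had been seen. All 10 were present in both expression tables, among 17769 genes of a knockout table and 60510 genes of a resistance table. All 10 also passed the filter on low values in both, and so were among the 17039 and 16503 genes tested. The filter asked for a log2 CPM of -1 in 3 libraries of a table, which DUSP6 met in the knockout table only through the HSP90α-KO libraries.

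RNA-seq covered 15 libraries from K562, an established chronic myeloid leukemia line that carries the BCR-ABL1 fusion kinase, in 5 groups of 3 replicates. The knockout table holds HSP90α-KO cells, which lack a working HSP90AA1 gene by design, HSP90β-KO cells, in which HSP90AB1 was the target, and empty vector (EV) controls with the genotype label WT. The resistance table holds PUHr cells, taken through rising doses of the HSP90 inhibitor PU-H71, and parental cells kept long term in the solvent DMSO, both labelled WT. The study reports that its PUHr cells had acquired a missense variant and a copy number gain of HSP90AA1, which the label does not show. The knockout comparisons ask which transcripts depend on each cytosolic HSP90 isoform, and the other asks which differ in cells that tolerate PU-H71. A text shared by the labels of every library describes lentiviral delivery of Cas9 and a guide, sorting by a fluorescence marker, and selection of single clones. The number of clones behind a group is not given. The loss of an isoform and the clone cannot be told apart, nor can resistance and the clone. Each EV library had 20589103 to 26216730 reads assigned to genes, each HSP90α-KO library 19594381 to 21112564, each HSP90β-KO library 20495247 to 24701713, each parental library 21584840 to 24364722 and each PUHr library 21847942 to 24477692. Levels are given in CPM, the reads on a gene scaled to its library by the edgeR normalization of the authors, which is not depth alone. A single read stood for 0.0381 to 0.0518 CPM. The study calls its replicates independent but does not say whether they are separate clones or cultures of 1, so the p-values measure the spread between these libraries.

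In growth factor and BCR-ABL1 signalling, RAS recruits RAF kinases, RAF activates MEK, and MEK phosphorylates ERK, which then switches on immediate early genes. Several of the genes that ERK induces act back on it: DUSP6 and DUSP7 remove the activating phosphates of ERK in the cytoplasm, DUSP4 and DUSP5 do so in the nucleus, Sprouty proteins hold back the signal between receptors and RAF, and SPRED proteins bring the RAS inactivator neurofibromin to the membrane. The transcript levels of such genes are widely read as a record of ERK output. HSP90 keeps RAF kinases and BCR-ABL1 folded, so that a kinase of the cascade and one upstream of it are among its clients.

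The targeted genes were checked first. HSP90AA1 stood at 716, 683 and 713 CPM in the 3 EV libraries, at 92.6, 88.0 and 90.8 CPM in HSP90α-KO and at 1218, 1190 and 1210 CPM in HSP90β-KO. HSP90AB1 stood at 2823, 2783 and 2812 CPM in EV, at 3267, 3310 and 3344 CPM in HSP90α-KO and at 1939, 1909 and 1889 CPM in HSP90β-KO. Each targeted transcript was thus lowest in the libraries labelled as its knockout, by -2.96 and -0.55 on the log2 scale against EV. The HSP90AB1 transcript remained abundant in HSP90β-KO, and these data do not show the protein. In the resistance table HSP90AA1 stood at 1721, 1720 and 1696 CPM in parental cells and at 1559, 1592 and 1553 CPM in PUHr, a fall of -0.13 (adjusted p = 4.7e-05), and HSP90AB1 fell by 0.24 (adjusted p = 1.9e-07). The study reports more HSP90α protein in PUHr than in parental cells on re-treatment with PU-H71, whereas the values here are RNA.

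The cell line was checked against blood lineage markers. Erythroid markers, which K562 cells are known to express, summed to 1142 ± 10.1 CPM (SD, n = 3) in EV, 917 ± 12.4 CPM in HSP90α-KO, 996 ± 17.5 CPM in HSP90β-KO, 3033 ± 20.3 CPM in parental cells and 2464 ± 48.0 CPM in PUHr, with TFRC as the most abundant. Lymphoid markers summed to 14.6 ± 1.21, 9.35 ± 0.950 and 21.9 ± 1.66 CPM in the same order of the knockout table, and to 12.9 ± 0.345 and 9.81 ± 0.272 CPM in parental cells and PUHr. The B cell marker MS4A1 had 0 reads in all 6 resistance libraries. Monocytic markers, mostly LYZ, summed to 50.6 ± 1.96, 84.4 ± 2.48 and 38.5 ± 0.973 CPM, and to 29.7 ± 1.24 and 24.9 ± 1.01 CPM. Megakaryocytic markers, with ITGA2B as the most abundant, summed to 18.1 ± 0.193, 17.1 ± 1.54 and 12.8 ± 0.253 CPM, and to 20.1 ± 0.556 and 15.6 ± 1.37 CPM. The erythroid profile matched the label in every group. It also moved: of 13 erythroid markers tested, 9 fell and 3 rose in HSP90α-KO (median log2 fold change -0.63) and 7 fell in HSP90β-KO (median -0.18), and in PUHr 8 of 14 fell and 4 rose (median -0.30). Of 4 lymphoid markers tested, 2 fell in HSP90α-KO and 1 rose in HSP90β-KO, and 2 of 3 fell in PUHr. Both monocytic markers tested rose in HSP90α-KO and fell in HSP90β-KO, and the 1 tested in the resistance table fell in PUHr. Of 3 megakaryocytic markers tested, 2 fell in HSP90α-KO and 2 in HSP90β-KO, and in PUHr 3 of 6 rose and 2 fell. These counts stand beside all genes tested, of which 27.5% rose and 26.6% fell in HSP90α-KO, 17.2% and 17.2% in HSP90β-KO and 25.6% and 25.8% in PUHr, and the lymphoid, monocytic and megakaryocytic lists are too short to be read against these shares. In the resistance table AHSP passed the filter only through parental cells, and PPBP and VWF only through PUHr, a way of entry that favors a fall and a rise in PUHr. The part of these shifts in the values below was not tested. In bulk RNA, fewer cells that express a gene and less RNA per cell cannot be told apart.

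RefSeq promoter entries (GRCh38.p14) were found for 8 of the 10 members, with 13 start sites, and not for DUSP4 and DUSP5. The 250 bases before each start were searched on both strands for 5 motifs bound by factors at the end of the ERK cascade. The motifs were chosen after these sequences had been seen, so the matches are a description of the sequences. The octamer TGAATGNA of the repressor CIC occurred before 1 start (SPRED3), against 3.25% of all 35097 promoters. The ETS core CCGGAA occurred before 2 starts (SPRY1 and SPRY2), against 14.5%, and the AP-1 motif TGANTCA before 1 (SPRED3), against 6.57%. The CRE TGACGTCA and the EGR motif GCGTGGG were at 0 of the 13 starts, against 1.65% and 6.19%, which says only that these letters are not in the windows. Sequences are printed for DUSP6, SPRY4 and SPRED3, whose levels differed most among the members with an entry. For DUSP6, a phosphatase gene on the minus strand, it is chr12:89352502-89352751. For SPRY4, on the minus strand, it is chr5:142324418-142324497, the part of the window outside annotated exons, from 250 to 171 bases before a start that lies inside the longer annotated gene. For SPRED3, on the plus strand, it is chr19:38389541-38389611, from 250 to 180 bases before the start, again outside exons, with the CIC octamer in capitals, 192 bases before the start.
DUSP6: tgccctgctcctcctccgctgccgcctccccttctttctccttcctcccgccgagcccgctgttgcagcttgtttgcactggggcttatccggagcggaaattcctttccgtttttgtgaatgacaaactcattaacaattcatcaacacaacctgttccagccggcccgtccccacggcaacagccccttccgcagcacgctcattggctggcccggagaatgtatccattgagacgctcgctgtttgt
SPRY4: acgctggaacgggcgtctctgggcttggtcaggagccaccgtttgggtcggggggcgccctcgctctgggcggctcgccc
SPRED3: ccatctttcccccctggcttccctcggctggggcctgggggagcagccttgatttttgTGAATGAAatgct

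The members differed widely in level. Per kilobase of exon, the order in EV was SPRED2 at 15.2 ± 0.316 CPM per kb (SD, n = 3), SPRY4 at 7.32 ± 0.263, SPRY2 at 5.16 ± 0.170, SPRED1 at 4.02 ± 0.282, DUSP7 at 3.32 ± 0.136, DUSP5 at 2.58 ± 0.0927, SPRY1 at 1.91 ± 0.0723, SPRED3 at 1.26 ± 0.169, DUSP4 at 0.190 ± 0.0475 and DUSP6 at 0.107 ± 0.00580 CPM per kb. No neighbours in this order overlapped between libraries of EV. In HSP90α-KO, SPRY4 reached 14.9 ± 0.680 CPM per kb, close below SPRED2 at 16.8 ± 0.337, and SPRY2 overlapped with DUSP5, DUSP7 with SPRED1 and SPRED3 with DUSP4. In HSP90β-KO, DUSP4 was the lowest member by its mean, at 0.0736 ± 0.0196 CPM per kb, and overlapped with DUSP6 at 0.0893 ± 0.0199. SPRED1 also overlapped with DUSP5, and DUSP5 with DUSP7. In parental cells the order was SPRED2 at 16.5 ± 0.605, SPRY4 at 10.1 ± 0.284, SPRY2 at 6.39 ± 0.261, DUSP7 at 4.50 ± 0.235, SPRED1 at 3.52 ± 0.113, DUSP5 at 2.36 ± 0.155, SPRY1 at 2.01 ± 0.190, DUSP4 at 1.18 ± 0.108, SPRED3 at 0.897 ± 0.0557 and DUSP6 at 0.179 ± 0.0451 CPM per kb, again with no neighbours overlapping. In PUHr the libraries of SPRY2 and DUSP7 overlapped, as did DUSP5 with SPRY1, SPRY1 with DUSP4 and DUSP4 with SPRED3. DUSP6 was thus a minor transcript throughout, and per kb most of the phosphatase message was DUSP5 and DUSP7. The 10 members summed to 222 ± 4.43 CPM in EV, 279 ± 8.91 CPM in HSP90α-KO, 219 ± 3.05 CPM in HSP90β-KO, 259 ± 2.05 CPM in parental cells and 317 ± 5.51 CPM in PUHr. The plot of members in the knockout table shows the level of each in every library.

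**Figure D1:**
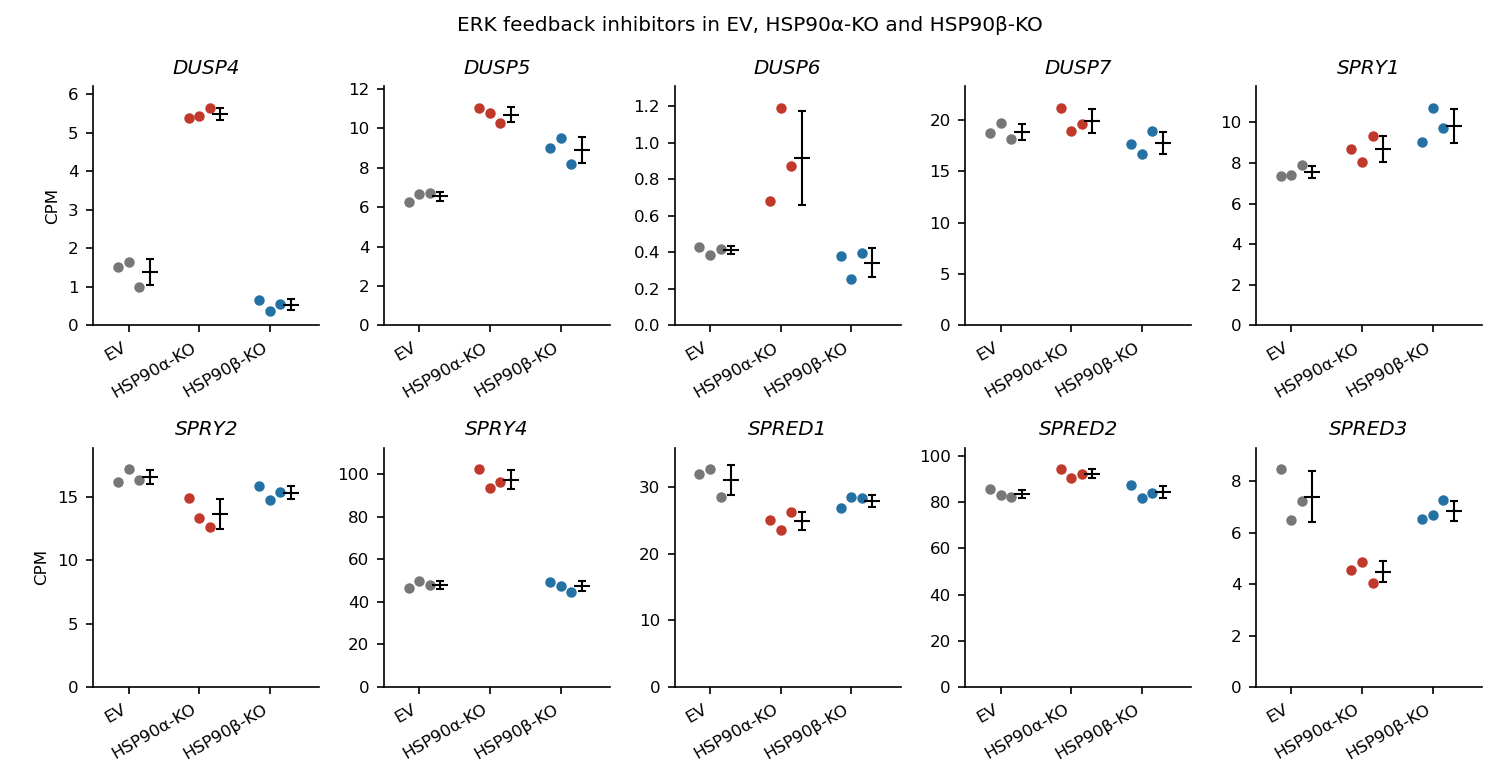
CPM of each of the 10 ERK feedback inhibitors in the 3 EV, 3 HSP90α-KO and 3 HSP90β-KO libraries (points), with the mean and SD of each group to the right of its points and a separate axis from 0 for each gene. DUSP4 stands at 5.37 to 5.65 CPM in HSP90α-KO against 0.991 to 1.64 in EV and 0.384 to 0.668 in HSP90β-KO, and SPRY4 at 93.6 to 102 CPM against 46.4 to 49.8 and 44.9 to 49.4.

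Differences were tested with limma over all genes of a table. A gene rose or fell when its adjusted p was under 0.05, and was called changed when its log2 fold change was also above 1 or below -1, the thresholds of the study. In HSP90α-KO against EV, 5 members rose, with DUSP6 among them, and 3 fell, where 27.5% of all genes tested rose and 26.6% fell. Called changed were 2 members upward, DUSP4 and SPRY4, where 5.32% of all genes were, and 0 downward, where 5.01% were. At an unadjusted p under 0.05 there were 6 higher and 3 lower, and voom on recovered reads called 3 upward, with DUSP6. The median log2 fold change of the members was 0.17, against -0.01 over all genes. In HSP90β-KO against EV, 2 members rose and 2 fell, where 17.2% of genes rose and 17.2% fell. By the changed rule 0 were higher and 1 was lower, DUSP4, where 1.83% and 2.65% of genes were. Unadjusted, 2 were higher and 2 lower, voom called 1, and the median was -0.10, against 0.00 over all genes. Both knockouts were compared with the same EV libraries, so their values are given side by side and not as independent results. In HSP90α-KO against HSP90β-KO, 6 members were higher and 3 lower, where 30.1% and 29.8% of genes were. By the changed rule 3 were higher, DUSP4, SPRY4 and DUSP6, where 7.14% of genes were, and 0 lower, where 5.57% were, with 6 and 3 unadjusted, 3 by voom and a median of 0.15, against -0.01. In PUHr against parental cells, 6 members rose and 0 fell, where 25.6% of genes rose and 25.8% fell. By the changed rule limma called 0 higher and 0 lower, where 5.37% and 4.69% of genes were, with 6 higher and 0 lower unadjusted, 0 by voom and a median of 0.22, against 0.00. DUSP6, for its way into the test, and DUSP5, for the shift of its surroundings described below, weigh on the counts upward in HSP90α-KO. Without both, 3 of 8 members rose and 3 fell in HSP90α-KO against EV, and 4 were higher and 3 lower between the knockouts. SPRED2 stays among the higher members in both counts, although its surroundings shifted about as much as it did. Their medians were 0.15 and 0.17, beside its own 0.14 and 0.13. The counts at an unadjusted p and by voom are given without a share of all genes and are not set against one. Whether the members as a set differ from other genes was not tested. The plot of fold changes sets the members side by side.

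**Figure D2:**
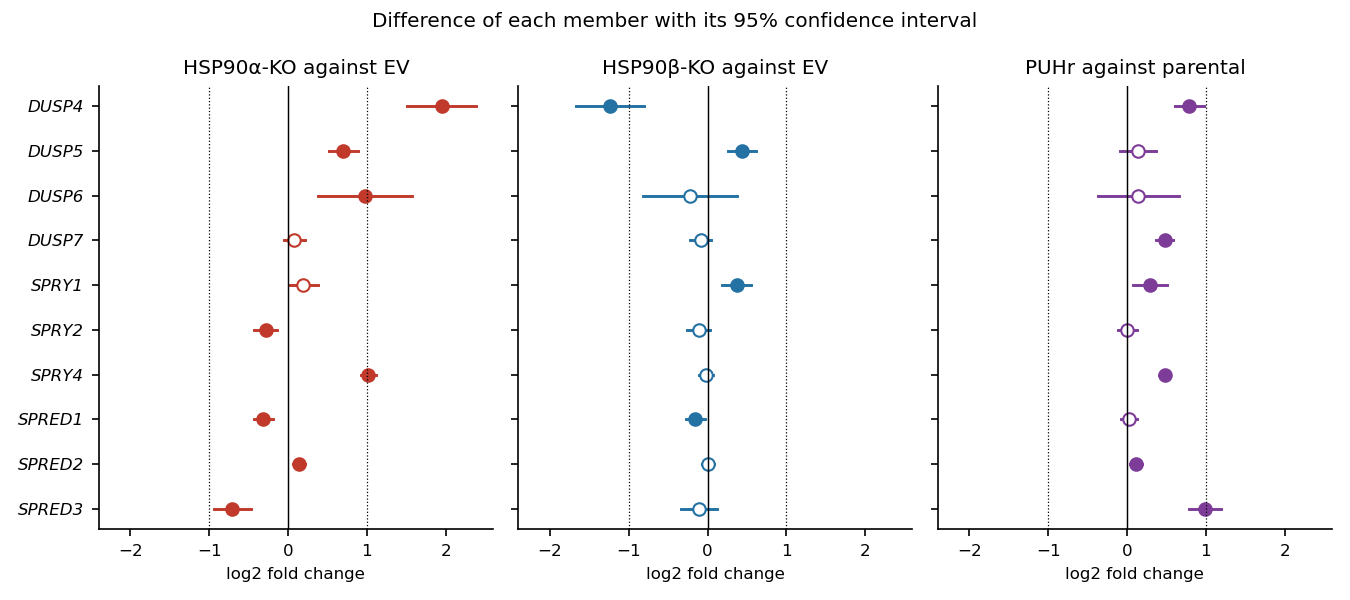
Log2 fold change (horizontal axis) of each member in HSP90α-KO against EV, HSP90β-KO against EV and PUHr against parental cells, with its 95% confidence interval from limma. Filled points have an adjusted p under 0.05 and dotted lines mark 1 and -1. DUSP4 lies at 1.95, -1.23 and 0.79, and SPRY4 at 1.02, -0.02 and 0.48.

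DUSP4 (ENSG00000120875) encodes a nuclear phosphatase of ERK. It stood at 1.52, 1.64 and 0.991 CPM in EV, at 5.37, 5.44 and 5.65 CPM in HSP90α-KO and at 0.668, 0.384 and 0.554 CPM in HSP90β-KO. The 3 groups did not overlap, with HSP90α-KO highest and HSP90β-KO lowest. These levels rest on 26 to 34 reads per library in EV, 105 to 110 in HSP90α-KO and 9 to 14 in HSP90β-KO. Against EV, DUSP4 rose in HSP90α-KO by 1.95 on the log2 scale (95% confidence interval 1.51 to 2.38, adjusted p = 1.3e-08) and fell in HSP90β-KO (-1.23, -1.67 to -0.80, adjusted p = 3.9e-05). The knockouts themselves differed by 3.18 (2.75 to 3.62, adjusted p = 5.9e-13), and DUSP4 was the only member called in opposite directions in the knockouts. The size of the fall in HSP90β-KO rests on few reads, and adding 1 CPM to every value brought it to -0.63, which still passed (adjusted p = 1.2e-04) but was no longer called changed. Adding 5 CPM brought the rise in HSP90α-KO to 0.72 (adjusted p = 1.1e-12) and the difference between the knockouts to 0.92 (adjusted p = 4.9e-15), so that both passed but lost the changed call. With 1 CPM added they stood at 1.45 and 2.08 and kept it.

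DUSP5 (ENSG00000138166), the other nuclear phosphatase, binds ERK in particular. It stood at 6.28, 6.65 and 6.71 CPM in EV, at 11.03, 10.78 and 10.27 CPM in HSP90α-KO and at 9.01, 9.52 and 8.19 CPM in HSP90β-KO. All libraries of both knockouts were above those of EV, and HSP90α-KO was highest. The rise was 0.70 on the log2 scale in HSP90α-KO (0.52 to 0.88, adjusted p = 1.8e-07) and 0.44 in HSP90β-KO (0.26 to 0.62, adjusted p = 3.0e-04). The knockouts differed by 0.26 (adjusted p = 0.012), which did not pass without HSP90β-KO replicate 3 (0.20, adjusted p = 0.08).

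The surroundings of DUSP5 moved with it in HSP90α-KO. DUSP5 lies on chromosome 10 (110497907 to 110511533), and its 40 nearest tested genes, 20 on each side, start between 103389041 and 114120862. In HSP90α-KO against EV these neighbours had a median log2 fold change of 0.59, with 32 that rose and 1 that fell, beside the 0.70 of DUSP5. In HSP90β-KO against EV their median was 0.00, with 8 that rose and 2 that fell, beside its 0.44, and in PUHr it was 0.04, beside its 0.14. Between the knockouts the neighbours had a median of 0.55, with 32 higher and 1 lower in HSP90α-KO, beside the 0.26 of DUSP5. The shift in HSP90α-KO covered the end of the chromosome: the medians of windows of 10 Mb were 0.47, 0.65, 0.55, 0.47 and 0.51 from 90 Mb on, and between -0.33 and 0.02 before 90 Mb. In HSP90β-KO the medians of the same windows from 90 Mb on lay between -0.02 and 0.08. This profile was drawn after the values had been seen, and DNA copy number was not analysed here. A change of DUSP5 itself and a shift of the whole chromosome end in HSP90α-KO cannot be told apart, and in HSP90β-KO DUSP5 rose without such a shift.

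**Figure D3:**
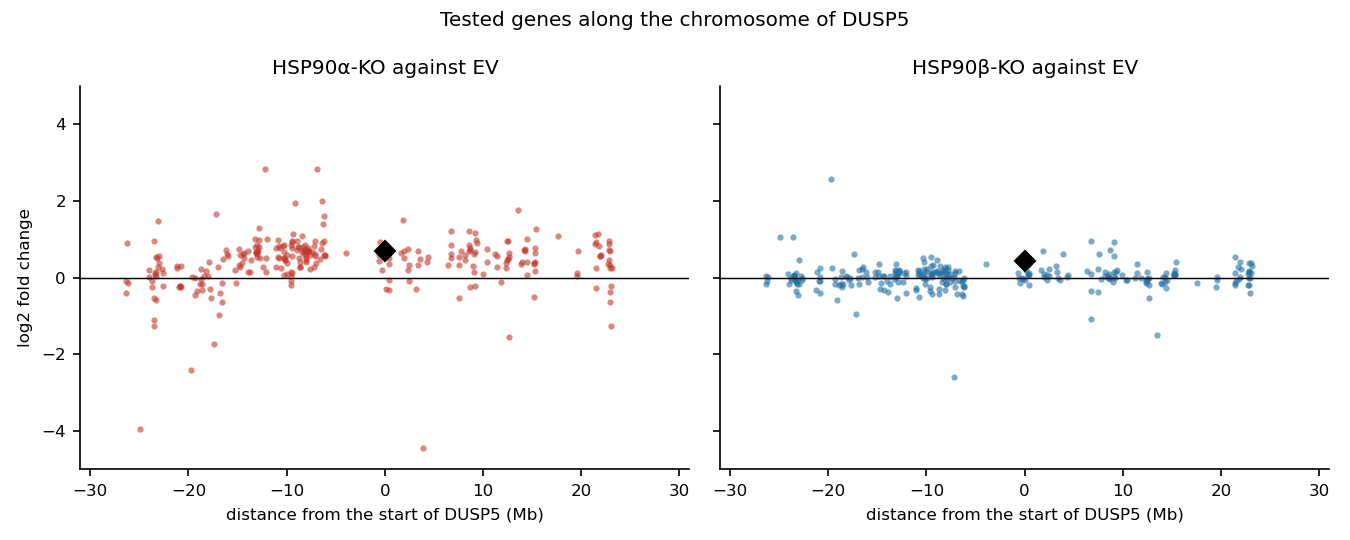
Log2 fold change (vertical axis) of tested genes by the distance of their start from that of DUSP5 in Mb (horizontal axis), in HSP90α-KO and HSP90β-KO against EV, with DUSP5 as a black diamond. In HSP90α-KO most genes near DUSP5 lie above 0, with a median of 0.59 over the 40 nearest, and in HSP90β-KO they center on 0.00 while DUSP5 lies at 0.44.

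The same comparison for the other 9 members gave no shift of that size. The medians of their 40 nearest tested genes lay between -0.07 and 0.15 in HSP90α-KO, between -0.03 and 0.08 in HSP90β-KO and between -0.12 and 0.13 in PUHr. For DUSP4, on chromosome 8 (29333064 to 29350684), the neighbours had medians of -0.07 and -0.03 in the knockouts, beside its own 1.95 and -1.23. For SPRY4 they had a median of -0.05 in HSP90α-KO, beside its 1.02. For SPRED2 the neighbours in HSP90α-KO had a median of 0.15, with 15 that rose and 5 that fell, which was as large as its own 0.14, and between the knockouts 0.17, beside its own 0.13.

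DUSP6 (ENSG00000139318), whose promoter is printed above, encodes a cytoplasmic phosphatase specific for ERK. It stood at 0.428, 0.386 and 0.419 CPM in EV, at 0.683, 1.19 and 0.873 CPM in HSP90α-KO and at 0.381, 0.256 and 0.396 CPM in HSP90β-KO. HSP90α-KO libraries were above all others but spread widely, and EV and HSP90β-KO overlapped. The levels rest on 8 to 11 reads per library in EV, 14 to 23 in HSP90α-KO and 6 to 10 in HSP90β-KO. A log2 CPM of -1 was reached by 2 EV, 3 HSP90α-KO and 0 HSP90β-KO libraries, so that DUSP6 entered the test only through HSP90α-KO. This way of entry favors a rise there, which is thus a description. DUSP6 rose in HSP90α-KO by 0.98 on the log2 scale (0.38 to 1.58, adjusted p = 0.0062). Without HSP90α-KO replicate 2 it did not pass (0.785, adjusted p = 0.05), and it was called changed without HSP90α-KO replicate 1 (1.15, adjusted p = 0.0043), with quantile normalization (1.05) and by voom (1.08). Over all its alternatives the difference ranged from 0.13 to 1.15. A difference from EV in HSP90β-KO was not detectable at this depth (-0.22, -0.82 to 0.38, adjusted p = 0.61). The knockouts differed by 1.20 (0.60 to 1.80, adjusted p = 9.5e-04), which was not called changed with 1 CPM (0.50) or 5 CPM (0.15) added. The way DUSP6 entered the test favors this difference too, so it is also a description. A noncoding RNA on the opposite strand, ENSG00000274021, shares 1105 bases or 28.6% of the DUSP6 exons. It had 0 to 4 reads in each resistance library and is not in the knockout table.

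DUSP7 (ENSG00000164086), the cytoplasmic relative of DUSP6, ranged from 18.1 to 19.7 CPM in EV, from 19.0 to 21.2 in HSP90α-KO and from 16.7 to 18.9 in HSP90β-KO. The groups overlapped against EV, and neither difference passed (0.08, adjusted p = 0.33, and -0.08, adjusted p = 0.35), with intervals that kept both within 0.22 of 0. The knockouts differed by 0.16 (adjusted p = 0.035), which did not pass without HSP90α-KO replicate 1 (0.12, adjusted p = 0.16), HSP90β-KO replicate 1 (0.16, 0.08) or HSP90β-KO replicate 2 (0.12, 0.17), nor with no intensity trend (0.16, 0.061). Of the phosphatases, DUSP4 thus passed upward in HSP90α-KO and DUSP7 did not pass. DUSP5, within the shifted chromosome end, and DUSP6, tested only through HSP90α-KO, also passed upward, and both rises are given as descriptions. Differences among the phosphatases were not tested.

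SPRY4 (ENSG00000187678), of the promoter shown above, is the most abundant Sprouty member. It stood at 46.4, 49.8 and 47.7 CPM in EV, at 102, 93.6 and 96.5 CPM in HSP90α-KO and at 49.4, 47.7 and 44.9 CPM in HSP90β-KO. HSP90α-KO was apart from both other groups, which overlapped each other. SPRY4 rose in HSP90α-KO by 1.02 on the log2 scale (0.93 to 1.11, adjusted p = 1.8e-16), with 975 to 2096 reads per library in these groups. It stood so close to the threshold of 1 that it was not called changed without EV replicate 1 (0.997) or HSP90α-KO replicate 1 (0.986), with quantile normalization (0.9905) or with 5 CPM added (0.95), though the rise passed in all 20 alternatives, at 0.95 to 1.05. Against HSP90β-KO it was higher by 1.04 (0.95 to 1.14, adjusted p = 7.1e-17), and not called changed with 5 CPM added (0.97). In HSP90β-KO it was -0.02 from EV (-0.11 to 0.07, adjusted p = 0.77).

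SPRY1 and SPRY2 are Sprouty proteins of the same pathway step. SPRY1 (ENSG00000164056) stood at 7.37, 7.42 and 7.89 CPM in EV, at 8.69, 8.03 and 9.34 CPM in HSP90α-KO and at 9.01, 10.7 and 9.70 CPM in HSP90β-KO. Both knockouts were above EV, but the rise passed in HSP90β-KO (0.37, 0.18 to 0.56, adjusted p = 0.0025) and not in HSP90α-KO (0.20, 0.01 to 0.39, adjusted p = 0.074). The difference between the knockouts did not pass (-0.17, adjusted p = 0.11), and without HSP90α-KO replicate 2 the rise in HSP90α-KO passed too (0.25, adjusted p = 0.041). SPRY2 (ENSG00000136158) ranged from 16.2 to 17.2 CPM in EV, from 12.6 to 14.9 in HSP90α-KO and from 14.8 to 15.9 in HSP90β-KO. Both knockouts were below EV, and the fall passed in HSP90α-KO (-0.28, -0.43 to -0.14, adjusted p = 0.0015) and not in HSP90β-KO (-0.11, adjusted p = 0.25). The difference between the knockouts (-0.17, adjusted p = 0.040) did not pass without EV replicate 3 (-0.17, 0.05), HSP90α-KO replicate 2 (-0.16, 0.097) or 3 (-0.12, 0.18), or HSP90β-KO replicate 1 (-0.15, 0.13) or 3 (-0.17, 0.085). It was also lost with 5 CPM added (0.054), quantile normalization (0.13), median centering (0.12), no intensity trend (0.056) and only the 6 libraries compared (0.052), and so in 10 of 20 alternatives. In HSP90α-KO SPRY4 thus rose and SPRY2 fell, while SPRY1, above EV in all libraries, did not pass.

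Of the SPRED members, SPRED1 and SPRED3 fell and SPRED2 rose in HSP90α-KO. SPRED3 (ENSG00000188766), the SPRED protein without a working KIT-binding domain, stood at 8.46, 6.51 and 7.24 CPM in EV, at 4.54, 4.87 and 4.06 CPM in HSP90α-KO and at 6.53, 6.70 and 7.28 CPM in HSP90β-KO. Every HSP90α-KO library was below every other, and EV and HSP90β-KO overlapped. SPRED3 fell in HSP90α-KO (-0.71, -0.94 to -0.48, adjusted p = 6.9e-06), and the knockouts differed by -0.60 (adjusted p = 5.0e-05). SPRED1 (ENSG00000166068), the partner of neurofibromin that is mutated in Legius syndrome, stood at 32.0, 32.7 and 28.6 CPM in EV, at 25.04, 23.62 and 26.23 CPM in HSP90α-KO and at 26.9, 28.5 and 28.3 CPM in HSP90β-KO. Both knockouts were below EV. The fall was -0.32 in HSP90α-KO (-0.44 to -0.20, adjusted p = 5.1e-05) and -0.15 in HSP90β-KO (adjusted p = 0.042). The latter did not pass without EV replicate 1 (-0.13, adjusted p = 0.13) or 2 (-0.12, 0.17) or HSP90β-KO replicate 1 (-0.13, 0.16), 2 (-0.17, 0.063) or 3 (-0.17, 0.071), nor with the replicate block (-0.15, 0.062) or no intensity trend (-0.15, 0.12). The knockouts differed by -0.16 (adjusted p = 0.019), which did not pass without HSP90α-KO replicate 2 (-0.12, 0.11) or HSP90β-KO replicate 2 (-0.15, 0.071) or 3 (-0.15, 0.064), nor with quantile normalization (0.071), median centering (0.083) or no intensity trend (0.065). SPRED2 (ENSG00000198369), the member highest per kb in every group, ranged from 82.5 to 85.7 CPM in EV, from 90.6 to 94.3 in HSP90α-KO and from 82.1 to 87.3 in HSP90β-KO. It rose slightly in HSP90α-KO (0.14, 0.07 to 0.22, adjusted p = 0.0021), and in HSP90β-KO it was 0.01 from EV (-0.06 to 0.09, adjusted p = 0.85).

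Resistance gave another pattern, with no member that fell past the test. DUSP4 stood at 7.69, 9.23 and 8.72 CPM in parental cells and at 13.8, 16.1 and 14.6 CPM in PUHr. SPRED3 stood at 5.62, 4.99 and 5.16 CPM in parental cells and at 10.04, 11.62 and 9.92 CPM in PUHr. SPRY4 stood at 67.5, 64.3 and 67.5 CPM in parental cells and at 92.3, 94.2 and 90.7 CPM in PUHr. In all 3 the PUHr libraries were above the parental libraries without overlap. SPRED3 rose by 0.99 on the log2 scale (0.78 to 1.19, adjusted p = 6.4e-07), just under the threshold, and was called changed without parental replicate 1 (1.04), PUHr replicate 1 (1.02) or PUHr replicate 3 (1.03). DUSP4 rose by 0.79 (0.61 to 0.98, adjusted p = 2.3e-06) and SPRY4 by 0.48 (0.40 to 0.55, adjusted p = 2.0e-08). SPRED3 had thus fallen in HSP90α-KO and risen in PUHr, in separate tables with their own controls, whereas DUSP4 and SPRY4 rose in both. The 2 controls differed in level themselves. DUSP4 averaged 1.38 CPM in EV and 8.55 CPM in parental cells, which is above its 5.49 CPM in HSP90α-KO. SPRY4 averaged 48.0 CPM in EV and 66.4 CPM in parental cells, and SPRED3 7.40 and 5.26 CPM. Whether the rises in the 2 tables are related was not tested.

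DUSP7 stood at 26.6, 25.9 and 24.0 CPM in parental cells and at 34.4, 36.3 and 36.0 CPM in PUHr. All its PUHr libraries were above the parental ones, and it rose by 0.48 (0.37 to 0.59, adjusted p = 1.6e-06). SPRY1, from 7.14 to 8.63 CPM in parental cells and from 8.76 to 10.7 in PUHr, rose by 0.29 (0.08 to 0.50, adjusted p = 0.022). This did not pass without parental replicate 1 (0.22, adjusted p = 0.11), PUHr replicate 1 (0.28, 0.053) or PUHr replicate 2 (0.23, 0.064), nor with no intensity trend (0.29, 0.068). SPRED2, from 87.2 to 93.7 CPM in parental cells and from 96.0 to 101 in PUHr, rose by 0.11 (adjusted p = 0.013). This did not pass without parental replicate 3 (0.08, adjusted p = 0.077) or PUHr replicate 3 (0.09, 0.063), nor with each library centered on its median (0.07, 0.13) or no intensity trend (0.11, 0.082). DUSP5 (0.14, -0.09 to 0.36, adjusted p = 0.29), SPRY2 (0.00, -0.12 to 0.13, adjusted p = 0.95) and SPRED1 (0.02, -0.08 to 0.13, adjusted p = 0.70) did not pass, and their libraries overlapped. For DUSP6, with 14 to 19 reads per parental library and 17 to 19 per PUHr library, a difference was not detectable at this depth (0.14, -0.37 to 0.65, adjusted p = 0.65). The plot of members in the resistance table shows these levels.

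**Figure D4:**
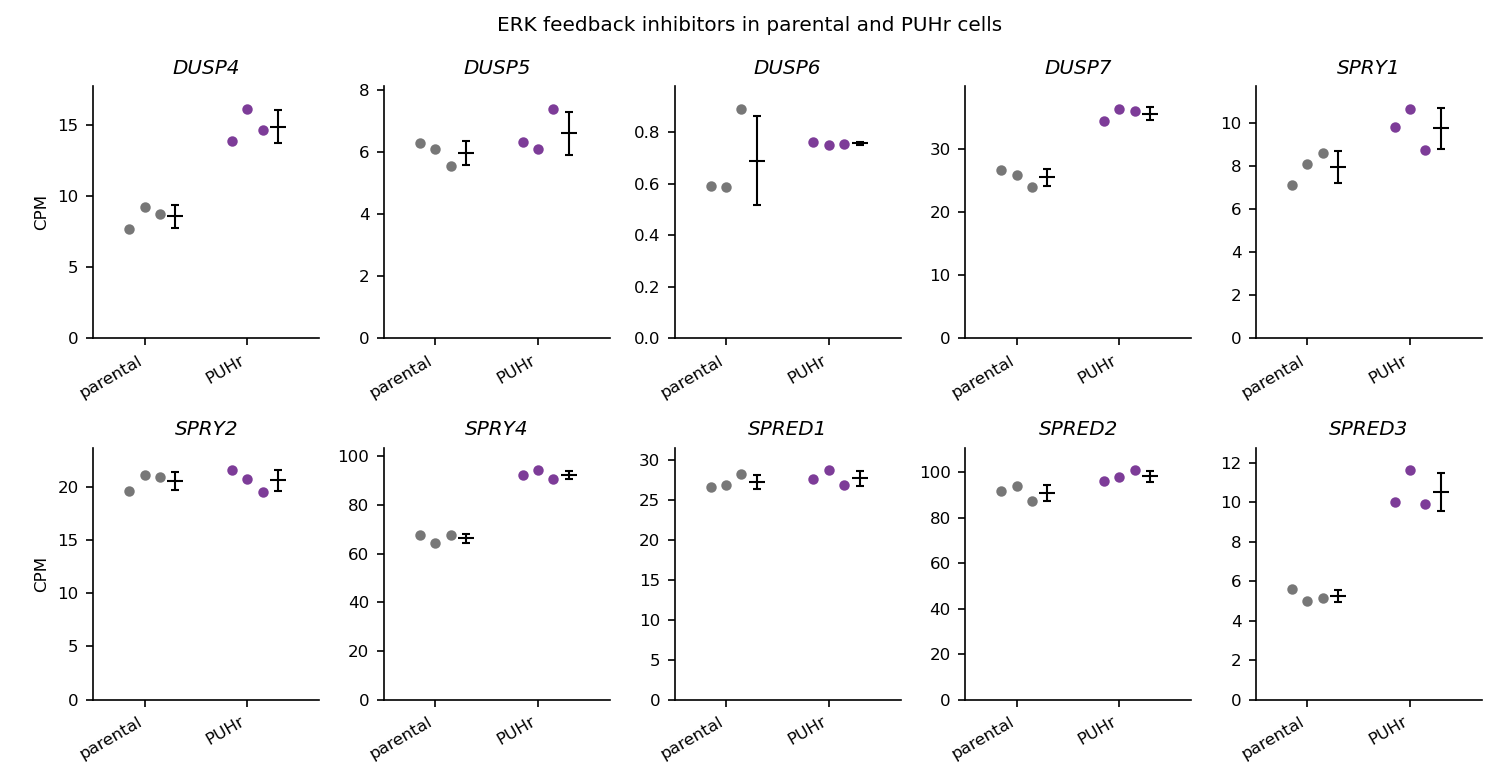
CPM of each of the 10 ERK feedback inhibitors in the 3 parental and 3 PUHr libraries (points), with the mean and SD of each group to the right of its points and a separate axis from 0 for each gene. DUSP4, DUSP7, SPRY1, SPRY4, SPRED2 and SPRED3 are higher in all PUHr libraries, and SPRED3 goes from 4.99 to 5.62 CPM in parental cells to 9.92 to 11.6 CPM in PUHr.

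For the most abundant member of each family in EV, the genes with the most similar profile over the 9 knockout libraries were listed by Pearson r of log2 CPM. The points share their groups, so that r mostly follows the group means. For SPRY4 they were VCL (0.997), MLXIP (0.996) and ZNF385A (0.996), for SPRED2 PAIP1 (0.984), STK3 (0.973) and RSBN1 (0.970), and for DUSP7 SPIDR (0.949), SEC16A (0.948) and ENSG00000286835 (0.947).

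Other genes of the cascade were read from 4 lists, as context for the members. Their counts stand beside all genes tested, of which 27.5% rose and 26.6% fell in HSP90α-KO, 17.2% and 17.2% in HSP90β-KO and 25.6% and 25.8% in PUHr, and 30.1% were higher and 29.8% lower in HSP90α-KO than in HSP90β-KO. By the changed rule 5.32% of all genes were higher and 5.01% lower in HSP90α-KO, and 1.83% and 2.65% in HSP90β-KO. In PUHr these shares were 5.37% and 4.69%, and between the knockouts 7.14% and 5.57%. Counts at an unadjusted p in these lists have no such share beside them. Differences between the lists were not tested. Of 20 ERK-induced targets tested, 14 rose and 2 fell in HSP90α-KO, with a median log2 fold change of 0.36 and 6 called changed upward. EGR1 (1.96), EGR3 (2.11) and CCND1 (2.37) were among them, and EGR2 went from 1 to 3 reads per EV library to 34 to 38 per HSP90α-KO library. EGR2 and EGR3, which are 2 of the 14 and of the 6, passed the filter only through HSP90α-KO, and EPHA2 passed it in the resistance table only through parental cells. The list is wider than its name, since it also holds the repressor CIC and the factors ELK1 and SRF. ELK1 (0.34) and SRF (0.29) are among the 14 that rose in HSP90α-KO, and CIC (-0.07) did not pass there. In HSP90β-KO 8 rose and 2 fell (median 0.11, or 0.12 with genes near 0 reads at their bounds), with IER3 (1.30) called changed. IER3, also among the 6 called changed in HSP90α-KO, reached the filter level in 0 EV, 3 HSP90α-KO and 3 HSP90β-KO libraries. This way of entry favors a rise against EV. In PUHr 4 rose and 10 fell (median -0.14), and 2 were called changed downward, FOS (-1.28) and EPHA2, which went from 11 to 21 reads per parental library to 1 to 3 per PUHr library. In HSP90α-KO more genes of this list rose than fell, and in PUHr more fell than rose while 6 of the 10 feedback inhibitors rose. These counts hold EGR2, EGR3, IER3 and EPHA2, whose way into the test favored their direction, and also ELK1 and SRF. No count without these genes was made, so the counts are a description. Between the knockouts 13 targets were higher and 5 lower in HSP90α-KO (median 0.27), with 4 called changed upward, EGR2 and EGR3 among them, and 1 downward.

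The cascade itself was read from its components and from CDC37, a co-chaperone of HSP90 that fell in HSP90α-KO (-0.14) and in PUHr (-0.10). Of 22 genes tested, from adaptors to ERK and RSK kinases and with CDC37 among them, 7 rose and 5 fell in HSP90α-KO (median 0.02). In HSP90β-KO 2 rose and 5 fell (median -0.03), and in PUHr 7 rose and 9 fell (median -0.03). In HSP90α-KO these counts are near the 27.5% and 26.6% of all genes. The largest of these rises, that of SHOC2 (0.69), lies 0.42 Mb from DUSP5 within the shifted end of chromosome 10. By limma 0 of them were called changed against EV or parental cells, with 9 and 5, 4 and 5, and 7 and 9 higher and lower at an unadjusted p under 0.05. Between the knockouts 12 were higher and 6 lower in HSP90α-KO (median 0.10), with GAB1 (-1.36, adjusted p = 1.9e-12) called changed.

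The last lists hold other phosphatases of MAP kinases and other regulators. Of 9 phosphatases tested, 1 rose and 3 fell in HSP90α-KO (median -0.10) and 2 rose and 3 fell in HSP90β-KO (median -0.11), where PTPN7 (-4.64, with 3 to 6 reads per HSP90β-KO library) and DUSP9 (-1.06) were called changed. Of 10 tested in the resistance table, 3 rose and 6 fell in PUHr (median -0.44), with PTPN7 (-5.31) and PTPRR (-1.95) called changed. Between the knockouts 3 were higher and 2 lower in HSP90α-KO (median 0.05), with PTPN7 (4.52) and DUSP9 (1.51) called changed. Of 14 other negative regulators and partners, such as RAS GTPase activators, 7 rose and 1 fell in HSP90α-KO (median 0.10), with IL17RD (1.57), CBLB (1.07), ERRFI1 (1.07) and RASA3 (-4.47) called changed. IL17RD passed the filter only through HSP90α-KO in the knockout table and only through PUHr in the resistance table, a way of entry that favors a rise there. In HSP90β-KO 4 rose and 0 fell by limma (median 0.07), with 5 and 0 unadjusted. Of 16 tested in the resistance table, 7 rose and 3 fell in PUHr (median 0.17), with DAB2IP (2.47), CAV1 (2.01), IL17RD (1.91) and ERRFI1 (1.02) called changed. Between the knockouts 7 were higher and 3 lower in HSP90α-KO (median 0.08), with IL17RD (1.39), RASA3 (-5.47) and RASAL2 (-1.36) called changed. The plot of the lists shows every gene tested.

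**Figure D5:**
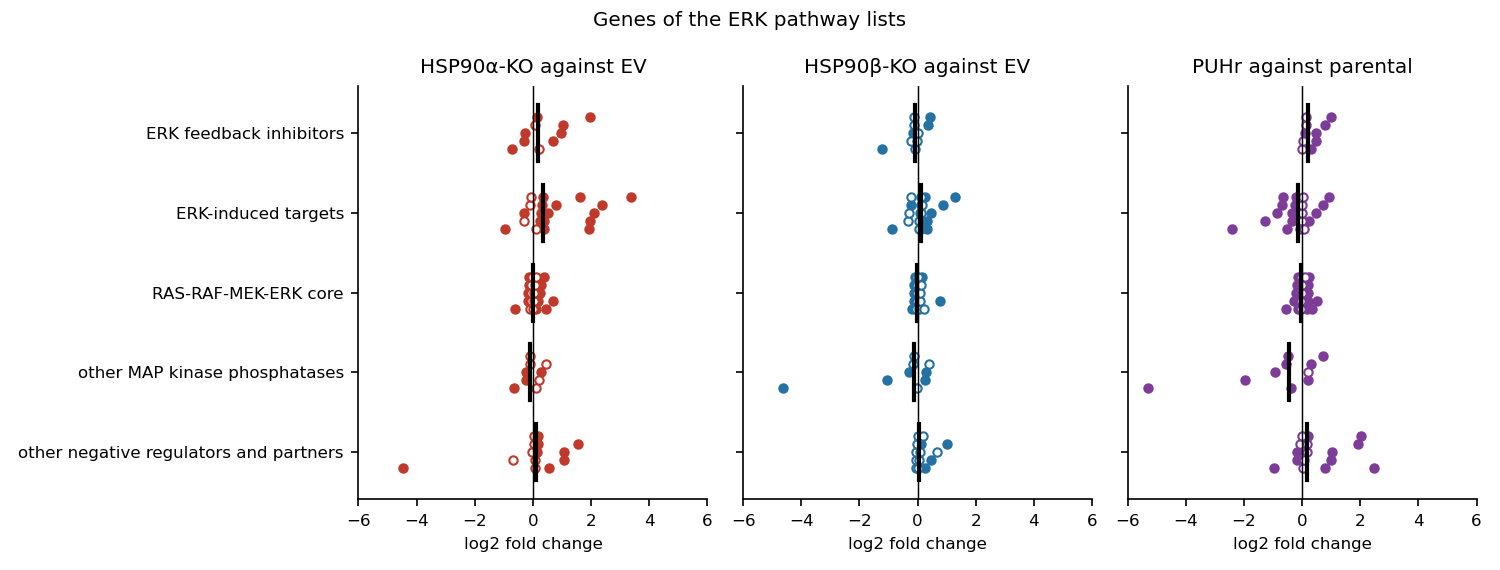
Log2 fold change (horizontal axis) of each tested gene of the ERK feedback inhibitors and of 4 further lists, in HSP90α-KO and HSP90β-KO against EV and in PUHr against parental cells. Filled points have an adjusted p under 0.05 and black bars are medians, which for the feedback inhibitors are 0.17, -0.10 and 0.22 and for the ERK-induced targets 0.36, 0.11 and -0.14.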

How the data were processed

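RNA-seq tables of 9 knockout and 6 resistance libraries were used, with the groups of the sample labels. The authors made stranded mRNA libraries and used STAR for alignment to hg38, featureCounts for counting and edgeR for normalization. The strand setting of the counting is not given in the sources used here. The values were deposited as log2 CPM. The prior of about 2 reads per library was removed to recover reads, and 100% of values fell within 0.1 read of a whole number. Depth ranged from 19594381 to 26216730 reads. The column names of the parental libraries spell DMSO as DSMO and call these libraries resistant. They were read as the parental libraries because no other sample label names DMSO. Entries without an identifier, 30 and 114, held 0.0270% to 0.0363% of the reads of a library and were left out.

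Genes that reached a log2 CPM of -1 in 3 or more libraries of a table entered the test with limma 3.58.1 in R 4.3.3 (lmFit, contrasts, eBayes with an intensity trend), two-sided, with 1 fit per table and Benjamini-Hochberg adjustment over all genes tested. limma on the deposited logarithms was planned before the files were opened. The edgeR F test that the authors used was not run on the recovered reads, for which voom was the alternative. The steps were run on simulated data with planted changes larger than those of any member against its control, in genes of 1 CPM or more in the controls. This does not cover smaller differences or levels as low as that of DUSP6 in EV. Members and lists were chosen with earlier results of these data known. Named were all members, HSP90AA1 and HSP90AB1, from each further list at most the 4 largest genes called changed in a comparison, SHOC2 for its place near DUSP5, markers that passed the filter through 1 group, and the 3 genes most like the most abundant member of each family among genes whose mean log2 CPM was 1 or higher. CIC, ELK1, SRF and CDC37 were also named, to show what their lists hold. Lists covered ERK-induced targets, the RAS-RAF-MEK-ERK core, other MAP kinase phosphatases, other negative regulators, and erythroid, megakaryocytic, lymphoid and monocytic markers. Exon lengths, positions and overlaps are from GENCODE 44, promoters from RefSeq. Alternatives covered the low-value filter, 0.1, 1 and 5 CPM added, quantile normalization, median centering, no intensity trend, voom, the thresholds, a replicate block, only the 6 libraries compared, and each library left out in turn.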

Additional observations from a re-analysis of the deposited data

How the results depend on the processing

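The 4 comparisons of the 10 members were recomputed under 753 combinations of a member's difference and an alternative: 715 stayed on their side of the threshold, 37 no longer passed, 1 newly passed and 0 reversed, with changes of sign only in differences that did not pass. The counts called changed moved more. With no fold change threshold 8 (HSP90α-KO), 4 (HSP90β-KO), 9 (between the knockouts) and 6 (PUHr) members were called in place of 2, 1, 3 and 0, and 9230, 5864, 10201 and 8480 of all genes in place of 1760, 764, 2166 and 1660, since fewer conditions are then set. A filter at a mean log2 CPM of 1 or more left 8 members in the knockout table, without DUSP4 and DUSP6, so that 1, 0 and 1 members were called there, and 717, 272, 933 and 751 of all genes. With no filter, and so 33996 genes tested, 2497 were called in PUHr. Adding 1 CPM, which shrinks differences of low values, gave 823, 289, 1162 and 941 genes and 0 members in HSP90β-KO. Adding 5 CPM gave 0 members in each knockout comparison and 346, 90, 507 and 385 genes. Leaving out any single library, 1 to 2 members were called in HSP90α-KO, the low value without EV replicate 1, and 0 to 1 in PUHr, the high value without parental replicate 1, PUHr replicate 1 or PUHr replicate 3. With a replicate block 2, 1, 3 and 0 members were called changed, as without it, but the fall of SPRED1 in HSP90β-KO no longer passed (adjusted p = 0.062). Deviations of libraries with the same replicate number correlated between -0.18 and 0.10, so the numbers pair no libraries. The median over all genes stayed between -0.04 and 0.04 under each scaling. Causes of changes other than those named were not tested. Depth limits DUSP6, with 6 to 23 reads per knockout table library, and DUSP4 in HSP90β-KO, with 9 to 14.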
